A study of Homo sapiens with 6 samples.

Results

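The LRRC8 genes encode the subunits of volume-regulated anion channels, and all 5 of them were found among the 50868 genes of the deposited table: LRRC8A, LRRC8B, LRRC8C, LRRC8D and LRRC8E. They were picked by gene name, and each name stood for 1 gene ID. Expression had been measured by RNA sequencing in Huh7 cells, a human hepatocellular carcinoma line labelled as wild type. The cells had been given a cell-permeating peptide at 20 µM for 5 days: P-T3H2 in 3 libraries, called the treated libraries here, or P-T3H2-2A, labelled as the control peptide, in 3 libraries, called the control libraries. Both groups therefore carried a peptide, and no untreated cells were analysed here. The study's title describes P-T3H2 as stabilising the HNF4α protein, a main transcription factor of hepatocytes. Nothing in the labels ties replicates to separate cultures, so p-values cover the spread among these libraries alone, and that spread may be technical.

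Volume-regulated anion channels open when a cell swells and let chloride and small organic osmolytes out, and water follows until the cell has regained its volume. LRRC8A is the subunit every such channel needs, and it assembles with at least one of LRRC8B, LRRC8C, LRRC8D and LRRC8E, which set what the pore lets through. Channels with LRRC8D pass taurine and other organic osmolytes well and are a known route of entry for cisplatin and blasticidin S, while LRRC8C and LRRC8E have been tied to transport of the second messenger cGAMP. Hepatocytes swell as they take up amino acids, which makes this release pathway part of ordinary liver cell physiology.

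LRRC8B, LRRC8C and LRRC8D lie one after another on the plus strand of chromosome 1, within 411776 bases from the start of LRRC8B to the end of LRRC8D. LRRC8B (ENSG00000197147) spans chr1:89524836-89597864, LRRC8C (ENSG00000171488) spans chr1:89633072-89769903 and LRRC8D (ENSG00000171492) spans chr1:89821014-89936611, all in GRCh38. LRRC8A (ENSG00000136802) stands alone at chr9:128882112-128918039 and LRRC8E (ENSG00000171017) at chr19:7888505-7902021, both on the plus strand. The upstream sequences of LRRC8B and LRRC8D are shown because these neighbours were the members with the widest differences between the peptides, in opposite directions. Each is the 250 bases before an annotated start, 5′ to 3′, from RefSeq (GRCh38.p14), where LRRC8D has a pair of starts. Both of these starts lie inside the LRRC8D span given above. The first LRRC8D window therefore runs into that span, and the second lies within it. Capitals mark matches to the CCAAT box (CCAAT) or the GC box (GGGCGG) on either strand.
LRRC8B, chr1:89524579-89524828: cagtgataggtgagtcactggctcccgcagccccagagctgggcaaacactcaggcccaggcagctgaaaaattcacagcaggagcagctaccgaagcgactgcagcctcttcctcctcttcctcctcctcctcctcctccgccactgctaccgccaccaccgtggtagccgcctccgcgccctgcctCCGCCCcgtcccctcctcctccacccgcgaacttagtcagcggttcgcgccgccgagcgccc
LRRC8D, first start, chr1:89820782-89821031: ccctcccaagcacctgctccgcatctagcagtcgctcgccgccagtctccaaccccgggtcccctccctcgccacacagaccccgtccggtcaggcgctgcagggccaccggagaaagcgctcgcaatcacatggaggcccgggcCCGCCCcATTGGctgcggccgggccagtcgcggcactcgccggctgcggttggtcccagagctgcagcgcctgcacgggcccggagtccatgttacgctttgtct
LRRC8D, second start, chr1:89821689-89821938: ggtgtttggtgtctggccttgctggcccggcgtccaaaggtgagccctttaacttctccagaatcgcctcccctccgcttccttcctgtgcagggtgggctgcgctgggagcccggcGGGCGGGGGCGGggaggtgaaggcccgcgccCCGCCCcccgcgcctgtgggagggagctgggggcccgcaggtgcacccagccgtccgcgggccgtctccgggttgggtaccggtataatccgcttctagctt
The windows held 66.8%, 70.8% and 70.8% G or C. The GC box was found in 1, 1 and 3 places, and it occurred in 42.6% of all 35116 promoter windows of this length. A CCAAT box was found once, in the first LRRC8D window, which 11240 of all windows held. The motif CAAAGTCCA, an HNF4 recognition sequence, was searched on both strands as well. It was in none of the 7 windows of the 5 members and in 0.325% of all windows, which says only that these letters were not there. The counts are per gene, so use of one LRRC8D start or the other was not measured.

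Total counts per library ranged from 17434442 to 21374732, and levels are given as CPM, counts scaled by the library total and its TMM factor. All 8 hepatocyte and hepatoma markers looked at, ALB and AFP among them, were expressed in every library, and their sum ranged from 30476 to 33410 CPM. Within that sum the markers differed in direction. FGB stood at 2966, 3006 and 812 CPM in the control libraries and at 746 to 766 CPM in the treated libraries. TF stood at 3157 to 3311 CPM and 2359 to 2704 CPM in these groups. ALB stood at 4291, 4191 and 5895 CPM in the control libraries and 5112 to 6163 CPM in the treated libraries. SERPINA1 stood at 1851, 1759 and 2553 CPM, and at 2434 to 2527 CPM. The groups overlapped for all but FGB and TF. Of 12 markers of other cell types, 7 stayed under 1 CPM throughout. EPCAM stood at 59.3 to 65.3 CPM, and LYZ stood at 126 and 134 CPM in control replicates 1 and 2 against 577 to 684 CPM in the other libraries. PECAM1 went the other way, at 11.7 and 11.5 CPM in control replicates 1 and 2 against 2.78 to 3.86 CPM. So did CD68, at 2.37 and 2.33 CPM against 0.33 to 0.869 CPM, while COL1A2 stood at 8.48 to 10.9 CPM throughout. The 12 summed to 210 to 730 CPM in the control libraries and 653 to 763 CPM in the treated libraries, with ACTA2 at 0. Most of each sum was LYZ, so the sums do not describe the set, and the part of these markers in the results was not tested. The library labelled as control replicate 3 lay close to the treated libraries for most genes that differed. Whether this library carries an exchanged label or differs in another way cannot be told apart from the files, which bears on every mean over the control libraries. The differences of the members and the list medians are therefore given with and without it, as are those of several other genes. The markers and the genes named for the place of that library are given by library alone.

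LRRC8D is the gene for which the family was chosen. Across all 15946 genes tested it was the one gene past an adjusted p of 0.05 in edgeR's quasi-likelihood test (adjusted p = 0.00619), so its difference is described here and supports nothing further. LRRC8D stood at 21.2, 22.1 and 21.6 CPM in control replicates 1, 2 and 3, and at 63.9, 65.99 and 64.6 CPM in treated replicates 1, 2 and 3. The treated libraries were all high, the control libraries all low, and nothing lay between. The means were 64.8 ± 1.07 CPM (SD, n = 3) and 21.6 ± 0.429 CPM (SD, n = 3), a ratio of 3.00 and a log2 difference of 1.58 (SE 0.079). Behind these levels were 4109 counts over the treated libraries and 1271 over the control libraries. The spread between libraries was below what counting alone gives: its coefficient of variation was 1.66% in the treated libraries, where counting error is 2.70%, and 1.99% in the control libraries, where it is 4.86%. Without control replicate 3 the log2 difference was also 1.58 (SE 0.065). In edgeR the adjusted p rose past the threshold when control replicate 1 (0.0579) or 2 (0.0953), or treated replicate 1 (0.0705) or 3 (0.149), was left out alone, while the log2 difference stayed between 1.57 and 1.60.

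LRRC8B, a subunit with little channel activity of its own beside LRRC8A, went the other way. It stood at 23.7, 26.6 and 14.0 CPM in control replicates 1, 2 and 3 and at 10.8, 12.8 and 10.65 CPM in the treated libraries. The groups did not overlap, but control replicate 3 was nearer to the highest treated library than to the other control libraries. The means were 11.4 ± 1.21 CPM (SD, n = 3) in the treated libraries and 21.4 ± 6.62 CPM (SD, n = 3) in the control libraries, a log2 difference of -0.91 (SE 0.247). Without control replicate 3 the log2 difference was -1.14 (SE 0.114), and the control level was then 2.21 times the treated level.

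**Figure D1:**
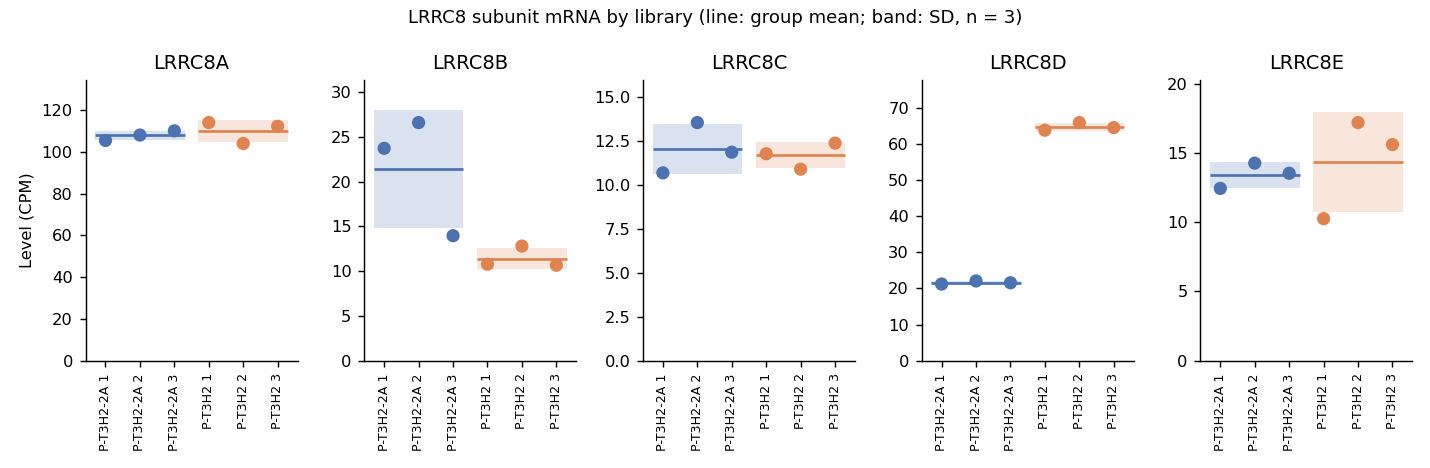
Level of each LRRC8 subunit mRNA in CPM (vertical axis, from 0) in each of the 6 libraries, with a line at the group mean and a band of 1 SD (n = 3). LRRC8D sat at 21.2 to 22.1 CPM in the control libraries and 63.9 to 65.99 CPM in the treated libraries, LRRC8B was lower in the treated libraries with control replicate 3 near the treated libraries, and the groups overlapped for LRRC8A, LRRC8C and LRRC8E.

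LRRC8A, the subunit no channel can do without, had overlapping groups. It stood at 105.5, 108.1 and 110.1 CPM in the control libraries, and at 114.1, 104.03 and 112.3 CPM in the treated libraries. The lowest and the highest library were both in the treated group. The log2 difference was 0.03 (SE 0.077), or 0.04 (SE 0.058) without control replicate 3.

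LRRC8C, first described in mice for a part in fat cell formation, stood at 10.7, 13.6 and 11.9 CPM in the control libraries, and at 11.8, 10.9 and 12.4 CPM in the treated libraries. Its groups overlapped, and the log2 difference was -0.04 (SE 0.132), or -0.06 (SE 0.13) without control replicate 3. LRRC8C lies between LRRC8B and LRRC8D on the chromosome, and its groups overlapped where those of both neighbours did not.

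LRRC8E, whose channels with LRRC8A inactivate readily at positive voltage, stood at 12.4, 14.3 and 13.5 CPM in the control libraries, and at 10.2, 17.2 and 15.6 CPM in the treated libraries. Treated replicate 1 was the lowest and replicate 2 the highest of the 6, so the groups overlapped. The log2 difference was 0.10 (SE 0.203), and also 0.10 without control replicate 3. Its coefficient of variation in the treated group was 25.3%, against 5.75% from counting alone.

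With all 6 libraries, 1 of the 5 members passed the adjusted threshold, against 0.00627% of all genes tested, and this count follows from how the family was chosen. Without control replicate 3, LRRC8D and LRRC8B both passed, 2 of 5 members, against 45.4% of all 16281 genes in that fit (22.6% higher, 22.8% lower), so the share of members was near the background. DESeq2 called LRRC8D alone with all 6 libraries, against 0.716% of genes, and LRRC8D and LRRC8B without that library, against 37.8% of genes (18.7% higher, 19.1% lower). limma-voom called LRRC8D, against 0.0188% of genes (0.0125% higher). The groups did not overlap for 2 of 5 members, LRRC8B and LRRC8D, against 23.4% of all genes tested (11.8% higher, 11.6% lower).

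The place of control replicate 3 is given next as a description, since LRRC8D was chosen from a comparison that counts this library as a control, and lying with the other controls is part of that choice. For each gene its placing was expressed on a log2 CPM scale on which 0 is the mean of control replicates 1 and 2 and 1 is the mean of the treated libraries. Over the 1777 genes for which these means differed by at least 1, the median placing of that library was 0.95, with quartiles at 0.823 and 1.04. LRRC8B, at 0.742, lay toward the treated side with most of those genes. LRRC8D, at -0.0027, lay with control replicates 1 and 2. A placing under 0.25 was found for 56 genes, or 3.15%, from which nothing is read about LRRC8D. In control replicate 3 LRRC8B was therefore nearer to its treated level while LRRC8D was at its control level. No placing was computed for LRRC8A, LRRC8C and LRRC8E, whose means differed by less than 1.

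**Figure D2:**
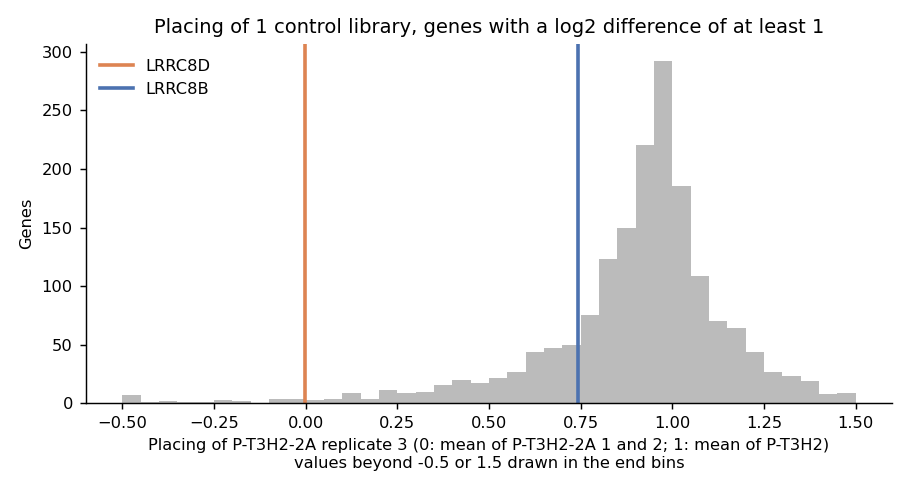
Number of genes (vertical axis) by placing of control replicate 3 on a scale from 0, the mean of control replicates 1 and 2, to 1, the mean of the treated libraries, for the 1777 genes with a log2 difference of at least 1. Most genes lie around the median of 0.95, LRRC8B is at 0.742 and LRRC8D at -0.0027.

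Levels of different subunits were compared per length, in the deposited FPKM, fragments scaled by gene length and library total. LRRC8A was the most abundant subunit mRNA in every library, at 10.5 to 11.6 FPKM, and LRRC8D came next in every library. LRRC8D stood at 2.03, 2.12 and 2.08 FPKM in the control libraries, and at 6.17, 6.33 and 6.22 FPKM in the treated libraries. Below them LRRC8B, LRRC8E and LRRC8C lay close together. In control replicates 1 and 2 LRRC8B followed LRRC8D, at 1.55 and 1.75 FPKM, above LRRC8E and then LRRC8C. In control replicate 3 and all treated libraries LRRC8B was last, at 0.703 to 0.92 FPKM, below LRRC8E and then LRRC8C. LRRC8E, at 1.42 ± 0.103 FPKM (SD, n = 3), and LRRC8B, at 1.41 ± 0.435 FPKM (SD, n = 3), did not differ beyond their spread in the control group.

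The gene length behind FPKM bears on this order. The lengths used were 9885 bases for LRRC8A, 15157 for LRRC8B, 12015 for LRRC8C, 10393 for LRRC8D and 9397 for LRRC8E. For all of these but LRRC8B they equal the summed length of all distinct exons in GENCODE release 29, in which overlapping exons of different transcripts are counted more than once. Merged, the exons of LRRC8D cover 4852 bases, those of LRRC8A 5230 and those of LRRC8C 11724, so FPKM understated LRRC8D and LRRC8A more than LRRC8C. Per kilobase of merged exons, LRRC8D stood at 4.45 ± 0.106 CPM (SD, n = 3) in the control libraries and 13.4 ± 0.173 CPM (SD, n = 3) in the treated libraries, and LRRC8A averaged 20.8 CPM over all libraries. LRRC8A stayed first and LRRC8D second in every library on this scale. LRRC8E lay above LRRC8B in every library but control replicate 1, so the FPKM order of this pair in control replicate 2 turned with the length used. By the longest coding transcript LRRC8E lay above LRRC8B in all 6 libraries. On merged exons LRRC8C was last in every library, at 0.905 to 1.16 CPM per kilobase.

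The make-up of the subunit pool differed mainly in LRRC8D, which is described here from the same libraries that led to its choice. In summed FPKM of the 5 members, LRRC8D held 12.4%, 12.2% and 12.5% in the control libraries and 30.03%, 31.04% and 29.6% in the treated libraries. LRRC8A held 62.6% to 67.2% in the control libraries and 51.5% to 56.4% in the treated libraries, while its own level overlapped between the groups. The LRRC8D to LRRC8A ratio, which does not depend on how libraries are scaled, was 0.191, 0.194 and 0.186 in the control libraries and 0.533, 0.603 and 0.547 in the treated libraries. The LRRC8D to LRRC8B ratio was 1.31 and 1.21 in control replicates 1 and 2, 2.26 in replicate 3, and 7.52 to 8.85 in the treated libraries. These ratios were therefore apart between the groups in every library, with control replicate 3 a little nearer to the treated libraries for the latter. The sum of the 5 members was 16.8 ± 0.586 FPKM (SD, n = 3) in the control libraries and 20.6 ± 0.309 FPKM (SD, n = 3) in the treated libraries. Left without LRRC8D, the sums were 14.7 ± 0.54 and 14.4 ± 0.353 FPKM (SD, n = 3), so the higher total was carried by LRRC8D. These are mRNA levels of the culture as a whole, in which a change in some cells and a change in all of them cannot be told apart, and they give no measure of subunit protein or channel make-up.

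**Figure D3:**
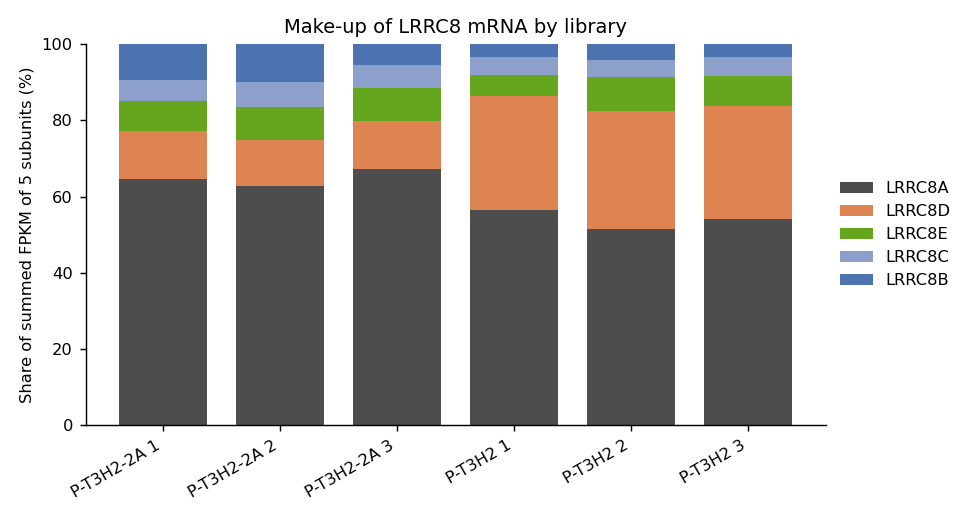
Share of each subunit (percent, vertical axis) in the summed FPKM of the 5 LRRC8 members, 1 stacked bar per library. LRRC8D makes up 12.2% to 12.5% of the control bars and 29.6% to 31.04% of the treated bars, and LRRC8B is thinner in control replicate 3 and in all treated libraries.

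Several transcripts overlap the members or lie beside them, and the strand setting of the counting is not given in the sources used here. A readthrough gene joining LRRC8C and LRRC8D, AC093423.3, had 7 to 10 counts per library, which is few beside the 367 to 458 and 1367 to 1371 counts of LRRC8D. AC099568.2, a gene on the opposite strand that begins 146 bases upstream of the LRRC8D start, had 17, 11 and 21 counts in the control libraries and 26, 23 and 25 in the treated libraries. Its log2 difference was 0.48 (SE 0.289), or 0.63 without control replicate 3, and it did not pass (edgeR, adjusted p = 0.338). LRRC8C-DT, which overlaps the end of LRRC8B on the other strand, had 6 to 16 counts, and AC010336.1, which overlaps LRRC8E in antisense, had 7 to 34. KYAT1, on the minus strand, shares 383 bases with the start of LRRC8A and had 333 to 443 counts.

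The genes around the chromosome 1 stretch were looked at next. Of 38 other genes within 1 Mb of the LRRC8B to LRRC8D stretch, 13 had enough counts to be tested, and edgeR called none, 1 at an unadjusted p under 0.05 against 18.0% of all genes, and none in DESeq2 or limma-voom. Their median log2 fold change was -0.01, against 0.00 for all genes tested, and 0.10 without control replicate 3. ZNF326, a zinc finger gene downstream of LRRC8D, stood at 73.9, 75.8 and 78.0 CPM in the control libraries and 76.9, 78.6 and 74.6 CPM in the treated libraries, a log2 difference of 0.02, or 0.03 without control replicate 3. PTGES3P1, a pseudogene upstream of LRRC8B, had the smallest p of the neighbours. It stood at 28.8, 28.1 and 20.6 CPM in the control libraries, and at 17.8, 18.3 and 18.1 CPM in the treated libraries, a log2 difference of -0.52 (SE 0.147, edgeR adjusted p = 0.275), or -0.66 without control replicate 3. RBMXL1, an RNA-binding protein gene, and the pseudogene GEMIN8P4 had log2 differences of -0.49 and -0.34 without passing with all 6 libraries. In edgeR without control replicate 3, RBMXL1 (-0.72, adjusted p = 0.00134) and PTGES3P1 (adjusted p = 0.000498) passed, and GEMIN8P4 (-0.33) did not. GBP2, an interferon-induced GTPase, showed the more usual pattern: 2.54 and 2.18 CPM in control replicates 1 and 2, 12.2 CPM in replicate 3 and 11.2 to 12.9 CPM in the treated libraries. Once control replicate 3 was left out, 2 neighbours rose and 3 fell of 14 tested, 35.7% against 45.4% of all genes.

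**Figure D4:**
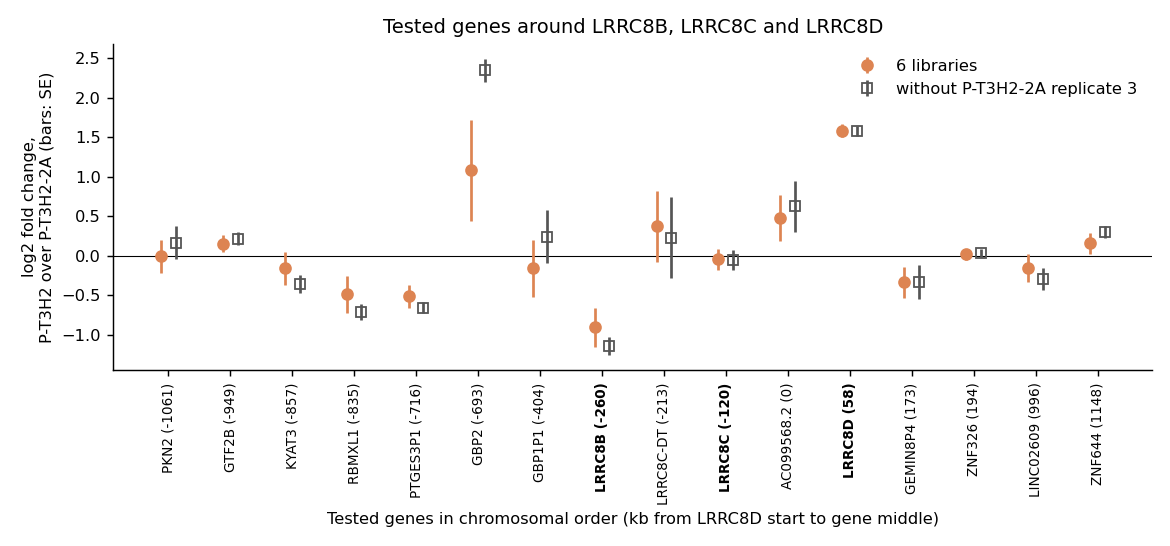
Log2 fold change of treated over control libraries (vertical axis, bars 1 SE) of the tested genes around LRRC8B, LRRC8C and LRRC8D in chromosomal order, with the distance in kb from the LRRC8D start, for all 6 libraries (filled) and without control replicate 3 (open). LRRC8D is at 1.58 in both, LRRC8B at -0.91 and -1.14, LRRC8C and ZNF326 near 0, and GBP2 at 1.08 and 2.35.

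Other anion channels were looked at beside the LRRC8 family. Of 36 anion channel and chloride transporter genes in the table, 26 were tested and edgeR called none with all 6 libraries, 8 at an unadjusted p under 0.05 against 18.0% of all genes, and none in DESeq2 or limma-voom. Their median log2 fold change was 0.28, or 0.39 without control replicate 3 and 0.11 without control replicate 1. ANO7, of the anoctamin family, stood at 5.32, 5.69 and 5.33 CPM in the control libraries and 9.83, 7.39 and 9.38 CPM in the treated libraries, a log2 difference of 0.70 (SE 0.155, edgeR adjusted p = 0.275), or 0.68 without control replicate 3. Control replicate 3 lay with the other controls for ANO7. CLCN2, a chloride channel that opens on hyperpolarisation and swelling, and ANO9 had log2 differences of 0.43 and 0.63. In the fit leaving out control replicate 3, 13 rose and 3 fell of 26, or 61.5%, beside 45.4% of all genes.

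Pannexins, to which the pore part of LRRC8 proteins is related, were grouped with connexins and CALHM channels. Of 30 such genes 10 were tested, edgeR called none with all 6 libraries, 3 at an unadjusted p under 0.05 against 18.0% of all genes, and none in limma-voom. DESeq2 called GJA1, which encodes connexin 43 of gap junctions, lower (adjusted p = 0.00988), against 0.508% of all genes called lower. GJA1 stood at 45.9, 49.5 and 38.4 CPM in the control libraries, and at 28.6, 28.5 and 29.4 CPM in the treated libraries. The groups did not overlap, and control replicate 3 was the lowest of the control libraries. The log2 difference was -0.63, or -0.73 without that library. GJB2 and GJB7, other connexins, had log2 differences of -0.97 and 0.72. The list's median was 0.19, 0.12 without control replicate 1 and 0.11 without treated replicate 2. In the fit without control replicate 3 the median was 0.17, and 1 rose and 3 fell of 11, or 36.4%, beside 45.4% of all genes.

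Regulation of volume also takes cation transporters, their WNK kinases and water channels. Of 26 such genes tested, edgeR called none with all 6 libraries, 7 at an unadjusted p under 0.05 against 18.0% of all genes, and none in DESeq2 or limma-voom. The median log2 fold change was 0.33, or 0.51 without control replicate 3. TRPM7, a channel kinase, stood at 76.7, 79.3 and 93.4 CPM in the control libraries, and at 106.4, 101.1 and 103.3 CPM in the treated libraries, a log2 difference of 0.32, or 0.41 without control replicate 3. STK39, the SPAK kinase downstream of WNK kinases, and WNK4 had log2 differences of -0.38 and 0.40. With control replicate 3 left out, 14 rose and 2 fell of 27, or 59.3%, beside 45.4% of all genes.

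Genes that supply or carry the osmolytes these channels release were mixed. Of 20 tested, edgeR called none with all 6 libraries, 5 at an unadjusted p under 0.05 against 18.0% of all genes, and none in DESeq2 or limma-voom. The median log2 fold change was 0.14, or 0.20 without control replicate 3. ALDH7A1, which makes the osmolyte betaine, stood at 124.7, 119.7 and 87.5 CPM in the control libraries, and at 75.3, 79.1 and 84.3 CPM in the treated libraries, a log2 difference of -0.48, or -0.62 without control replicate 3. The glutamate transporter gene SLC1A1 and the inositol monophosphatase gene IMPA1 had log2 differences of -0.86 and 0.30. In the 5 libraries left without control replicate 3, 7 rose and 5 fell of 20, or 60%, beside 45.4% of all genes.

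The cargoes that enter or leave through LRRC8 channels include cGAMP and platinum drugs. Of 10 genes of cGAMP transport and STING signalling tested, edgeR called none with all 6 libraries, 2 at an unadjusted p under 0.05 against 18.0% of all genes, and none in DESeq2 or limma-voom. ENPP1, the enzyme that degrades cGAMP outside the cell, stood at 176.3, 179.6 and 249.5 CPM in the control libraries, and at 291.1, 256.5 and 267.4 CPM in the treated libraries, a log2 difference of 0.43, or 0.61 without control replicate 3. STING1, the cGAMP receptor, had 0.466 to 1.79 CPM, a low level. SLC19A1, a folate carrier that also imports cGAMP, had a log2 difference of -0.39. The list's median was 0.08, and it changed sign, to -0.0081, without control replicate 3. It was 0.12 without control replicate 1 and 0.052 without treated replicate 2. In this list 2 rose and 2 fell of 11, or 36.4%, once that library was left out, beside 45.4% of all genes. Of 12 genes of platinum uptake and export tested, edgeR called none with all 6 libraries, 5 at an unadjusted p under 0.05 against 18.0% of all genes, and none in limma-voom. DESeq2 called ATP7B, a copper exporter that also moves cisplatin, higher (adjusted p = 0.00988), against 0.208% of all genes called higher. ATP7B stood at 112.6, 128.1 and 119.95 CPM in the control libraries, and at 160.7, 164.3 and 163.5 CPM in the treated libraries, a ratio of 1.35 and a log2 difference of 0.44, or 0.43 without control replicate 3. Its groups did not overlap and control replicate 3 lay among the controls. SLC22A3 and ABCC2, transporters of organic cations and of conjugates, had log2 differences of -0.85 and 0.25, and the list's median was 0.12, also without control replicate 3, but 0.033 without control replicate 2. Here 4 rose and 3 fell of 12, or 58.3%, without control replicate 3, beside 45.4% of all genes.

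The leucine-rich repeat in the name of the family is shared with many unrelated genes. Of 64 other numbered LRRC genes 34 were tested, edgeR called none with all 6 libraries, 7 at an unadjusted p under 0.05 against 18.0% of all genes, and none in DESeq2 or limma-voom. Their median log2 fold change was -0.03, or -0.02 without control replicate 3, and LRRC40, LRRC34 and LRRC28 had log2 differences of -0.52, -1.27 and 0.59. Leaving out control replicate 3, 6 rose and 9 fell, or 44.1%, close to the 45.4% of all genes.

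**Figure D5:**
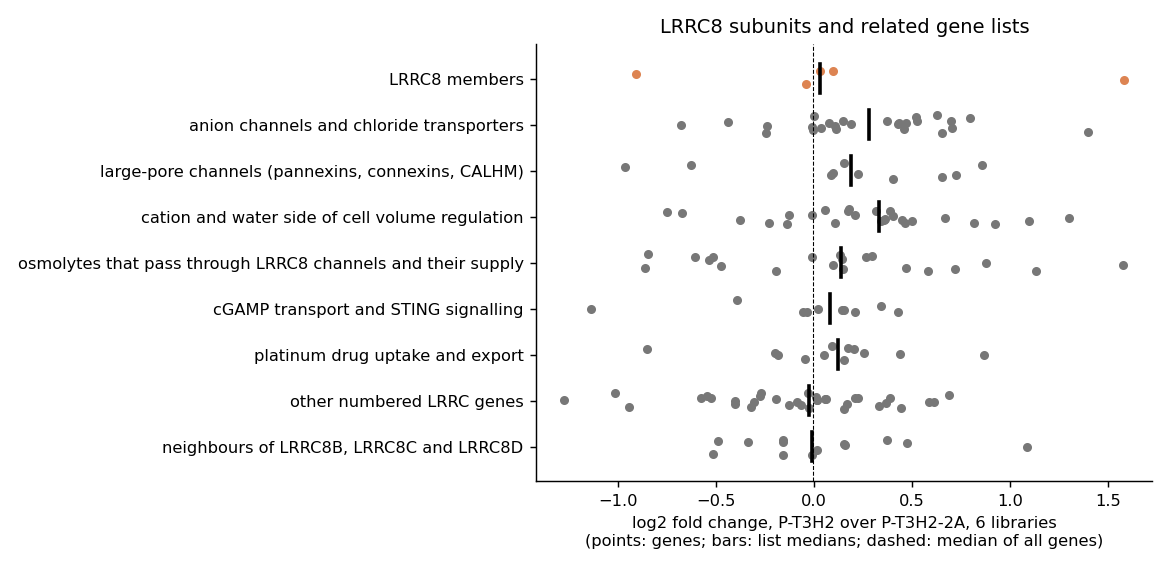
Log2 fold change of treated over control libraries with all 6 libraries (horizontal axis) of each tested gene in the LRRC8 family and the related lists, with a bar at the list median and a dashed line at the median of all genes. LRRC8D at 1.58 and LRRC8B at -0.91 are the outer points of their family, and list medians run from -0.03 to 0.33.

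The genes whose level over the 6 libraries was most like that of LRRC8D were ranked by Pearson's r of log2 CPM among 11397 other genes with a mean of at least 5 CPM. These were GLMP, a lysosomal membrane protein gene (r = 0.988), AC109460.3 (0.984), LINC02604 (0.98), ADD1, which encodes the membrane skeleton protein adducin 1 (0.978), and C14orf132 (0.978). The measure follows the shape and not the size of a difference: the treated level was 1.12 times the control level for GLMP, 1.58 for AC109460.3, 1.25 for LINC02604, 1.24 for ADD1 and 5.06 for C14orf132. None of the 5 passed in edgeR with all 6 libraries (adjusted p 0.11 to 0.275). DESeq2 with all 6 libraries called C14orf132 (adjusted p = 1.87e-20) and AC109460.3 (adjusted p = 0.0139), against 0.716% of all genes. Without control replicate 3 edgeR called all 5 (adjusted p 1.35e-05 to 0.0299), against 45.4% of all genes. The 5 were picked from these same libraries for following LRRC8D, whose groups stood apart. These calls largely follow from that pick, and nothing is read from them. C14orf132 stood at 12.55, 11.7 and 7.21 CPM in the control libraries, and at 55.0, 51.6 and 52.7 CPM in the treated libraries, a log2 difference of 2.34, or 2.13 without control replicate 3. The points share their libraries and lie at a pair of levels. A high r therefore says only that the groups were apart with control replicate 3 on the control side, as for LRRC8D. For C14orf132 that library lay below the other controls.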

How the data were processed

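RNA of 6 Huh7 libraries, 3 per peptide, was sequenced by the submitters. The authors deposited whole-number counts and FPKM values for 50868 genes, per the file headers. The submitters' processing notes list HISAT2 2.0.4, StringTie 1.3.3b, edgeR and a mouse genome build, although the genes are human Ensembl IDs with GRCh38 coordinates. The labels' protocols name a pair of library kits. For annotation and strand setting, the sources used here give nothing. FPKM as deposited were counts over the total and over 1 fixed length a gene (13364 of 13364 genes with at least 20 counts in each library, tolerance 0.001). That length matched the summed distinct exons of GENCODE release 29 for 86.1% of 13320 genes.

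The main test was edgeR 4.0.16 in R 4.3.3 with TMM, filterByExpr (minimum count 10, total 15), a robust quasi-likelihood fit on group alone, and Benjamini-Hochberg adjustment over all genes (threshold 0.05). SE is the log2 fold change over the square root of F. The procedure was run on simulated data in which no control library was made to lie with the treated libraries. That run therefore does not cover the place of control replicate 3, and nothing is drawn from it here. Libraries of a group differed by more than sampling noise (chi-square over genes, 11.6 or more per gene). Promoters came from RefSeq for 5 of 5 members.

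Members and lists were chosen with earlier results of these data known. Named genes are the members, the 3 of smallest p in each list, the 5 most like LRRC8D and tested neighbours. CFTR, KCNMA1, SLC6A12, the genes named for the placing of control replicate 3 and the promoter motifs were chosen after values or sequences were seen. Alternatives were DESeq2 1.42.0, limma 3.58.1 (voom, and trend on log2 FPKM with pseudocounts of 1 and 0.1), other scalings and filters, a replicate block, and leaving out each library. Other gene lengths and DESeq2 without control replicate 3 were added after the data were seen. Depth, 17434442 to 21374732 counts per library, sets counting error only.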

Additional observations from a re-analysis of the deposited data

How the results depend on the processing

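LRRC8D kept its direction under all 16 alternatives, with log2 fold changes of 1.24 on log2(FPKM + 1) and 1.54 to 1.60 otherwise. Its call was lost with the replicate block (1.58, adjusted p = 0.253) and on leaving out the first control library (adjusted p = 0.0579), the second control library (0.0953), or treated replicates 1 (0.0705) and 3 (0.149), each alone, and kept without control replicate 3 or treated replicate 2. Leaving out each library gave 1.57 to 1.60. The labels do not say whether same-numbered libraries belong together. These correlated at -0.051, 0.163 and 0.112 in their deviations from group means, and differently numbered libraries at -0.190 to 0.132. That does not settle whether they were paired, and the block gave 0 calls. LRRC8B stayed negative in every alternative that tested it, at -1.14 to -0.73 over left-out libraries, and was called without control replicate 3 (edgeR -1.14, DESeq2 -1.15). LRRC8C turned to 0.046 without control replicate 2 and 0.0062 without treated replicate 2 (range -0.12 to 0.05). LRRC8E turned to -0.052 without treated replicate 2 (range -0.05 to 0.29). Neither passed in any alternative, and the cause was not tested.

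Genes past the threshold numbered 1 in edgeR, 117 in DESeq2, 3 in limma-voom, 4 without a count filter, 2 on log2(FPKM + 1), 0 to 7390 over left-out libraries (7390 without control replicate 3) and 6643 in DESeq2 without that library. List medians moved with the library left out: 0.11 to 0.39 for anion channels, 0.11 to 0.21 for large-pore channels, 0.23 to 0.51 for cation and water genes, 0.092 to 0.20 for osmolyte genes, -0.0081 to 0.12 for cGAMP genes, 0.033 to 0.15 for platinum genes, -0.07 to -0.02 for other LRRC genes and -0.12 to 0.10 for neighbours. In DESeq2 without control replicate 3 the anion channel median was 0.47, and in DESeq2 with all libraries the platinum median was 0.047. List members past the threshold, 0 as reported, changed with that library left out and for 1 connexin and 1 platinum gene in DESeq2.

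Mean FPKM over 6 libraries was 11.02, 1.08, 0.987, 4.16 and 1.47 for LRRC8A to LRRC8E. LRRC8B stood at 1.41 in the control and 0.753 in the treated libraries alone, and LRRC8D at 2.08 and 6.24. Per kilobase of merged exons, LRRC8A stood at 20.8, LRRC8B at 1.99, LRRC8D at 8.91 and LRRC8E at 3.20 CPM. Per kilobase of the longest coding transcript, LRRC8A to LRRC8E stood at 23.6, 2.04, 1.64, 10.9 and 3.70 CPM, all set by the length used. The LRRC8D share was 12.28% to 12.46% in the control libraries and 29.8% to 30.5% in the treated libraries over left-out libraries. Counts per member and library ran from 185 to 2448. The counting error, taken from the mean count of each member in each group, was 2.07% to 6.50%.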

Other observations

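The members with the largest log2 fold change in the anion channel, cation and osmolyte lists had control replicate 3 near the treated libraries, unlike LRRC8D. They were looked up after their values were seen. SLC6A12, a betaine transporter gene, stood at 18.2 and 17.7 CPM in control replicates 1 and 2, at 427 CPM in control replicate 3 and at 511, 371 and 499.6 CPM in the treated libraries. The potassium channel gene KCNMA1 stood at 1.85, 0.842 and 11.8 CPM in the control libraries and at 10.04 to 13.4 CPM in the treated libraries. The chloride channel gene CFTR was near the detection limit, with 1, 6 and 38 counts in the control libraries and 32 to 51 in the treated libraries. With all 6 libraries the log2 fold changes of SLC6A12, KCNMA1 and CFTR were 1.575, 1.301 and 1.398, against 1.583 for LRRC8D. Without control replicate 3 they were 4.68, 3.18 and 3.35, against 1.58 for LRRC8D. These genes were therefore above LRRC8D in the latter fit and not in the former.

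Of 847 genes that averaged 5 CPM or more and differed by at least 1 on the log2 scale between the treated libraries and control replicates 1 and 2, 24 had a placing of control replicate 3 under 0.25. LRRC8D was among them, which follows from its choice as the gene called with that library among the controls. In several of the others, 1 treated library stood apart from the rest of its group. SEPTIN11, a cytoskeletal GTPase gene, stood at 45.2, 150.9 and 44.4 CPM in treated replicates 1, 2 and 3, and at 184.5, 157.1 and 160.8 CPM in the control libraries. The ferritin pseudogene FTH1P10 stood at 0.652, 52.8 and 0.518 CPM in the treated libraries and at 50.3, 53.4 and 44.4 CPM in the control libraries. HSPA2, a heat shock protein gene, stood at 69.9, 32.7 and 69.5 CPM in the treated libraries and at 12.1, 22.1 and 6.17 CPM in the control libraries. In others the treated libraries lay close together, as for C14orf132 above. COX7A2L, a factor of respiratory supercomplex assembly, was also of this kind. It stood at 32.1, 31.9 and 33.4 CPM in the treated libraries and at 75.6, 75.1 and 62.02 CPM in the control libraries. How reads were assigned to genes with similar copies or several transcripts is not given in the sources used here, and its part in these values was not tested.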
